A study of Mus musculus with 6 samples.

Results

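The platelet-derived growth factor (PDGF) family is described here in cultured stem/progenitor cells of mouse tendon (TSPCs). Its members were chosen by gene name from the deposited expression table. They are the ligand genes Pdgfa, Pdgfb, Pdgfc and Pdgfd, the receptor genes Pdgfra and Pdgfrb, and the receptor-like gene Pdgfrl, and all 7 were found among the 15711 genes of the table. Bulk RNA libraries were made from Col1α1+Vldlr+ cells (3 libraries) and from Col1α1+Vldlr- cells (3 libraries), the sort being on Vldlr, a receptor for very low density lipoprotein. The study asked how the Vldlr+ cells take part in tendon regeneration. Both groups came from tendon, both carry a Cre recombinase driven by a type I collagen promoter together with a YFP reporter, and both were kept in serum-containing medium after the sort. The genotype label carries a different number after Col1α in each of the 6 samples (Col1α1-Cre;YFP for the first), and was read as 1 genotype. The labels give no age and do not say whether the libraries came from separate animals or cultures, so a p-value covers only the spread among these 6 samples, which may be technical, and the source of a library and its sort label cannot be told apart. Serum is itself a source of PDGF, and both groups were exposed to it.

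PDGF ligands are dimers of A, B, C or D chains that bind the receptor tyrosine kinases encoded by Pdgfra and Pdgfrb. The alpha receptor binds the A, B and C chains, and the beta receptor binds chiefly the B and D chains. A bound receptor dimerises, phosphorylates itself and recruits adaptors that switch on the RAS-ERK and PI3K-AKT pathways, which drive division and migration of mesenchymal cells. In tissues, PDGF-B from endothelial cells draws in Pdgfrb-bearing mural cells, and Pdgfra marks interstitial fibroblasts, among them progenitor cells of the mouse tendon sheath.

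Libraries held 17280540 to 17719560 worked-out reads, and a single read over 1 kb of exon equalled 0.0537 RPKM in the labelled Vldlr- and 0.0602 to 0.0608 RPKM in the labelled Vldlr+ libraries (RPKM being reads per kilobase of exon, adjusted for library size by the authors). That scaling thus differed by group, and the total-read scaling given beside some results leaves it out. The mitochondrial share of reads also differed, at 2.58% to 2.92% in the labelled Vldlr- and 1.59% to 1.95% in the labelled Vldlr+ libraries, and its part in the results was not tested. Replicate 1 of the labelled Vldlr+ libraries stood apart from its group, with a chi-square per gene of 14.6 and 12.5 against the other labelled Vldlr+ libraries, which differed from each other by 2.34. The groups are named as labelled, because Vldlr gave no usable check. It was listed at 0.961, 0.959 and 0.467 RPKM in the labelled Vldlr- libraries, values that were not whole reads and became whole (1118, 1117 and 1025 reads) with 5 RPKM added. In the labelled Vldlr+ libraries it was listed at 4.73, 3.97 and 3.70 RPKM (783, 663 and 619 reads). As listed Vldlr was higher in the labelled Vldlr+ libraries, and with 5 RPKM added to the others it would be lower, so every direction below is between labels. All 9 genes of a tendon marker list were detected, with the tendon transcription factor gene Scx (named after its values were seen) at 12.5 RPKM in the labelled Vldlr- and 15.4 RPKM in the labelled Vldlr+ libraries. In this list 8 of 9 genes were called higher and 1, Tnmd, lower in the labelled Vldlr+ libraries by the limma test below. That is 100% called, beside 55.9% of all genes tested. Against a 1.5-fold change 4 were higher and 1 lower, beside 4.43% and 5.00% of all genes. The summed level of the list was 3446 to 3639 RPKM in the labelled Vldlr- and 11247 to 12218 RPKM in the labelled Vldlr+ libraries. The genes of this list named by rule were Thbs4 (1011 against 2.23 RPKM), Fmod (3152 against 288 RPKM), Comp (2615 against 335 RPKM), Tnmd (6.88 against 27.2 RPKM) and Col1a1 (3027 against 1789 RPKM). Here and wherever a pair of list gene levels is joined by "against", the labelled Vldlr+ mean comes first.

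The labelled Vldlr+ libraries held more transcript of the beta receptor, of the B chain and of the receptor-like gene, and less of the alpha receptor and of the D chain. With limma, fitted to log2(RPKM + 1) over 12116 genes and called at an adjusted p under 0.05, 3 of the 7 members were higher (Pdgfb, Pdgfrb and Pdgfrl), 2 were lower (Pdgfd and Pdgfra) and 2 did not pass (Pdgfa and Pdgfc). Of all genes tested, 55.9% passed, 29.7% as higher and 26.1% as lower, so a count of 5 members of 7 is not far from the background. Against a 1.5-fold change, tested with limma's treat, 2 members were higher (Pdgfb and Pdgfrb) and 0 lower, beside 4.43% and 5.00% of all genes (9.43% in either direction). The count lower was 1, Pdgfd, at an unadjusted treat p under 0.05 (6.09% of all genes) and also 1 at an adjusted p under 0.05 with limma voom (6.58% of all genes). The labelled Vldlr+ and labelled Vldlr- ranges did not overlap for 6 of the 7 members, against 62.9% of all genes tested. Pdgfb, which is in this count and in those of members higher, passed the filter of 1 RPKM in at least 3 libraries only through the labelled Vldlr+ ones. It had to differ in order to be tested, so its part in these counts is no support. The median log2 fold change of the 7 members was -0.07 and that of all genes 0.02.

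**Figure D1:**
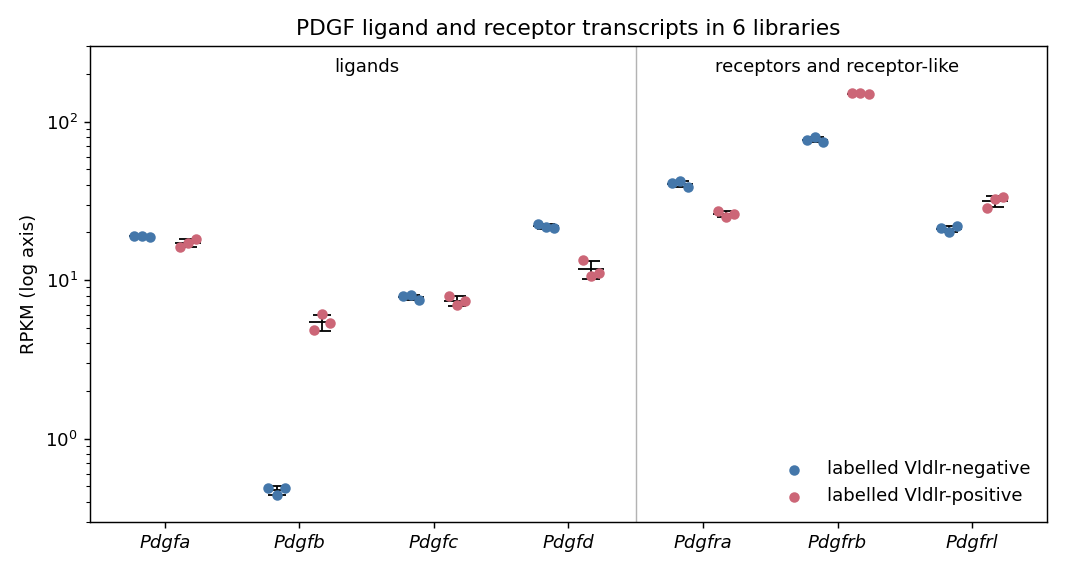
RPKM (log axis) of the 7 PDGF members in each of the 6 libraries, with points for libraries and black bars for the mean ± SD of 3. Pdgfb lies under 0.5 RPKM in all labelled Vldlr- libraries and above 4.8 RPKM in all labelled Vldlr+ ones, while the Pdgfa and Pdgfc points of the groups lie close together.

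Pdgfrb encodes the beta receptor, the receptor for PDGF-BB and PDGF-DD, and was the most abundant member in every library. The gene lies on chromosome 18, 61045150 to 61085061, plus strand (GENCODE M21, GRCm38). It stood at 76.3, 79.9 and 74.4 RPKM in labelled Vldlr- replicates 1 to 3 and at 150.5, 151 and 149 RPKM in labelled Vldlr+ replicates 1 to 3. The labelled Vldlr+ values lay within 3 RPKM of each other, and all were above every labelled Vldlr- value. The means were 150.2 ± 1.31 and 76.8 ± 2.79 RPKM (SD, n = 3 each), 1.95-fold higher in the labelled Vldlr+ libraries (log2 fold change 0.96, SE 0.05, limma adjusted p = 1.7e-06). The change passed the test against 1.5-fold (limma treat adjusted p = 8.3e-04), but with libraries scaled by total reads alone it did not (adjusted p = 0.0585). With that scaling the log2 fold change of Pdgfrb was 0.76, where all genes shifted by a median of -0.17, leaving 0.93. Its mean level was above that of 97.5% of the genes tested.

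Pdgfra encodes the alpha receptor, which serves the A and C chains and also binds the B chain. It lies on chromosome 5, 75152292 to 75198215, plus strand. Its values were 41.0, 42.1 and 38.8 RPKM in the labelled Vldlr- and 27.1, 25.1 and 26.1 RPKM in the labelled Vldlr+ libraries. The groups did not overlap, and the direction was the opposite of that of Pdgfrb. The mean was 1.56-fold lower in the labelled Vldlr+ libraries, at 26.1 ± 1.01 against 40.6 ± 1.70 RPKM (log2 fold change -0.62, SE 0.06, limma adjusted p = 3.4e-05). It did not pass the test against 1.5-fold (limma treat adjusted p = 1), except with total-read scaling (adjusted p = 0.0168). With that scaling the log2 fold change was -0.81, where all genes shifted by a median of -0.17, leaving -0.64. The gene overlaps antisense models in its exons, and whether the counting used strand is not given in the sources used here, so reads of either strand could not be told apart.

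Since both receptors were measured in the same library, their ratio does not depend on how libraries were scaled. Pdgfrb per Pdgfra was 1.86, 1.90 and 1.92 in the labelled Vldlr- libraries and 5.55, 6.03 and 5.70 in the labelled Vldlr+ ones. Every labelled Vldlr+ ratio was above every labelled Vldlr- one. The log2 ratio was 0.920 ± 0.0226 and 2.52 ± 0.0606, a difference of 1.60 (exact two-sided permutation p = 0.1, the smallest that 3 against 3 allows). Leaving out any 1 library gave differences of 1.57 to 1.63. The summed RPKM of both receptors was 117 ± 4.41 in the labelled Vldlr- and 176 ± 1.41 in the labelled Vldlr+ libraries.

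**Figure D2:**
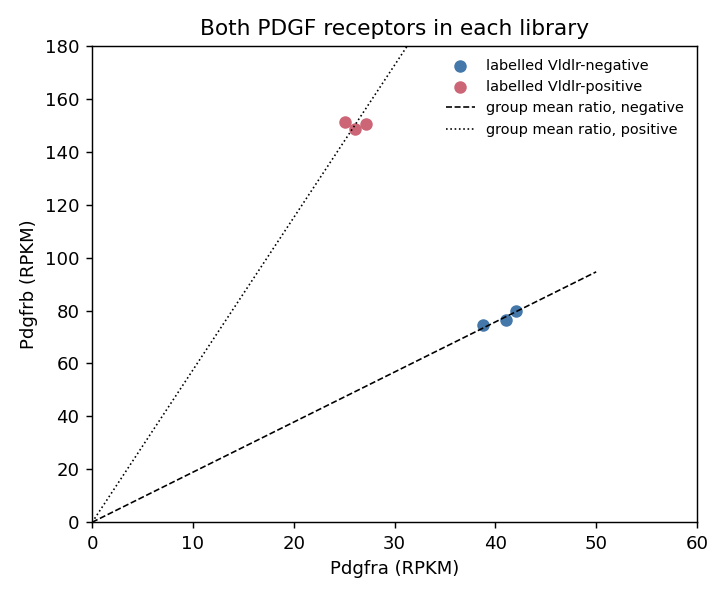
Pdgfrb against Pdgfra (both in RPKM) in each library, with lines through the origin at each group's mean ratio. The labelled Vldlr+ libraries lie along a line of slope 5.76 and the labelled Vldlr- ones along a line of slope 1.89.

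Pdgfrl encodes a protein named for its resemblance to the PDGF receptor outside the cell, with no kinase domain. It lies on chromosome 8, 40926212 to 40990785, plus strand. It was at 21.4, 20.2 and 22.0 RPKM in the labelled Vldlr- and 28.4, 32.7 and 33.4 RPKM in the labelled Vldlr+ libraries. All labelled Vldlr+ values were above the labelled Vldlr- ones, and the lowest of them was replicate 1, the library that stood apart. The mean was 1.49-fold higher, at 31.5 ± 2.70 against 21.2 ± 0.915 RPKM (log2 fold change 0.55, SE 0.07, limma adjusted p = 3.2e-04), and did not pass against 1.5-fold (limma treat adjusted p = 1).

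Among the ligands, Pdgfb showed the largest change of all 7 members. It encodes the B chain, which binds both receptors, and lies on chromosome 15, 79995874 to 80014977, minus strand. It was at 0.490, 0.439 and 0.490 RPKM in the labelled Vldlr- and 4.84, 6.08 and 5.37 RPKM in the labelled Vldlr+ libraries. These values rest on 38, 34 and 38 worked-out reads against 331, 420 and 371. The highest upper limit of the exact 95% Poisson intervals was 52.2 reads in the labelled Vldlr- libraries, and the lowest lower limit was 296 reads in the labelled Vldlr+ ones (counting error only). Pdgfb was thus near the floor of the table in one group and modest in the other. The mean was 11.5-fold higher, at 5.43 ± 0.625 against 0.473 ± 0.0297 RPKM (log2 fold change 2.12, SE 0.08, limma adjusted p = 2.1e-07). It also passed against 1.5-fold (limma treat adjusted p = 1.5e-06). Adding 1 RPKM before the log understates the change of so low a gene, and on that scale it ranked 69 of 12116 by size of rise. Pdgfb passed the filter of 1 RPKM in at least 3 libraries only through the labelled Vldlr+ group, so it had to differ in order to be tested. With a filter at 5 RPKM it was not tested.

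Pdgfd encodes the D chain, a ligand of the beta receptor, and changed in the other direction. It lies on chromosome 9, 6168584 to 6378850, plus strand. It was at 22.5, 21.6 and 21.3 RPKM in the labelled Vldlr- and 13.3, 10.6 and 11.1 RPKM in the labelled Vldlr+ libraries. The groups did not overlap, and labelled Vldlr+ replicate 1 was the highest of its group. The mean was 1.87-fold lower in the labelled Vldlr+ libraries, at 11.7 ± 1.45 against 21.8 ± 0.641 RPKM (log2 fold change -0.85, SE 0.08, limma adjusted p = 4.8e-05). Against 1.5-fold the limma treat adjusted p was 0.0562, and without labelled Vldlr+ replicate 1 it was 5.6e-04, with a log2 fold change of -0.94. Over all alternatives it ran from 5.6e-04 to 0.200, so that call depends on the setting.

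Pdgfa encodes the A chain, which binds the alpha receptor alone, and Pdgfc encodes the C chain, which also acts through that receptor. Pdgfa (chromosome 5, 138976014 to 138997370, minus strand) was at 19.0, 19.0 and 18.6 RPKM in the labelled Vldlr- and 16.2, 17.1 and 18.1 RPKM in the labelled Vldlr+ libraries. The labelled Vldlr+ values were all lower, the nearest by under 1 RPKM. The log2 fold change was -0.13 (95% interval -0.26 to -0.01) and did not pass after adjustment (limma adjusted p = 0.0714). It passed with upper-quartile scaling (log2 fold change -0.16, adjusted p = 0.0331). With total-read scaling it also passed, at -0.32 (adjusted p = 0.00139), where all genes shifted by a median of -0.17, leaving -0.15. Pdgfa overlaps the antisense gene 6330403L08Rik, listed at a mean of 3.24 RPKM, in its exons. Pdgfc (chromosome 3, 81036416 to 81214040, plus strand) was at 7.90, 8.06 and 7.46 RPKM in the labelled Vldlr- and 7.97, 6.93 and 7.35 RPKM in the labelled Vldlr+ libraries. The groups overlapped, and the log2 fold change was -0.07 (95% interval -0.21 to 0.08, limma adjusted p = 0.398). That interval is on the log2(RPKM + 1) scale. Pdgfc also overlaps an antisense gene in its exons, Gm16000, which was not among the genes listed.

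**Figure D3:**
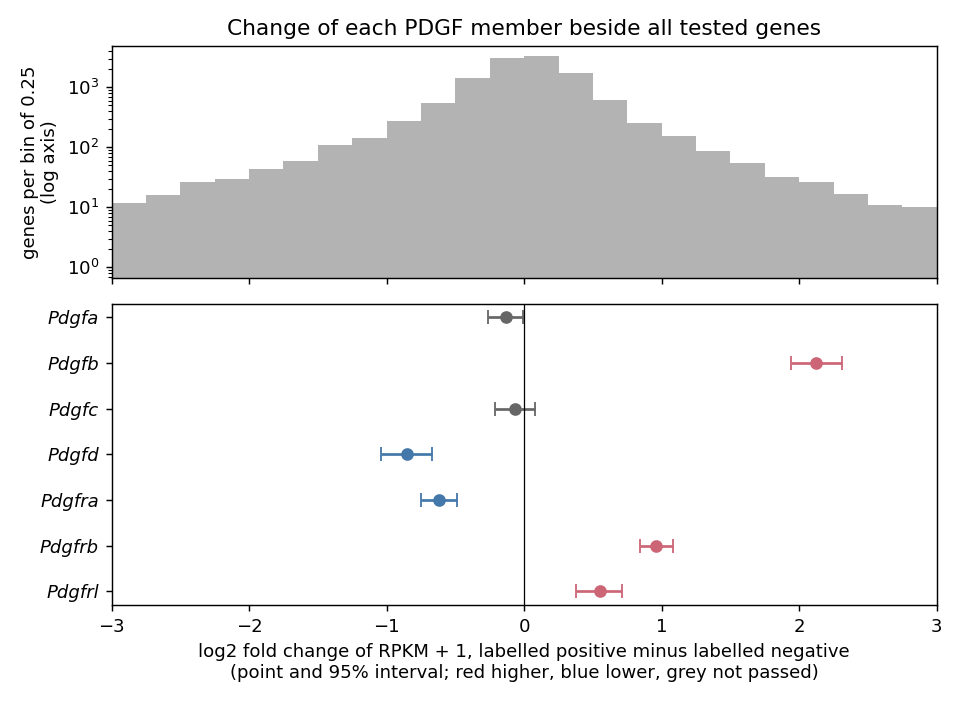
Upper panel, number of tested genes per bin of 0.25 in log2 fold change (log axis), with genes beyond ±3 not drawn. Lower panel, log2 fold change of RPKM + 1 for each PDGF member with its 95% interval. Pdgfb, at 2.12, lies far out on the right of the distribution, and Pdgfa and Pdgfc lie near its centre.

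The make-up of the ligand transcripts, as shares of their summed RPKM, differed between these libraries by label. Summed over the 4 ligand genes, the level was 49.9, 49.1 and 47.9 RPKM in the labelled Vldlr- and 42.4, 40.7 and 41.9 RPKM in the labelled Vldlr+ libraries. The sum was lower in every labelled Vldlr+ library, although Pdgfb was higher in each. Pdgfd held 44.5% ± 0.553 of the sum in the labelled Vldlr- and 28.0% ± 3.02 in the labelled Vldlr+ libraries (n = 3 each). Pdgfb went from 0.967% ± 0.0663 to 13.1% ± 1.78, and Pdgfc from 15.9% ± 0.436 to 17.8% ± 0.920. For each of these shares the groups did not overlap, and the exact two-sided permutation p was 0.1, the smallest possible (0.133 adjusted over the 4 ligands). The Pdgfa share was 38.5% ± 0.454 and 41.2% ± 2.56, with overlapping values (exact permutation p = 0.3). The difference of 2.63 percentage points was 4.06 without labelled Vldlr+ replicate 1, the library that stood apart (exact permutation p = 0.1), where the groups did not overlap, and 1.59 without labelled Vldlr+ replicate 3. The largest ligand share was thus that of Pdgfd in every labelled Vldlr- library and that of Pdgfa in every labelled Vldlr+ one.

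**Figure D4:**
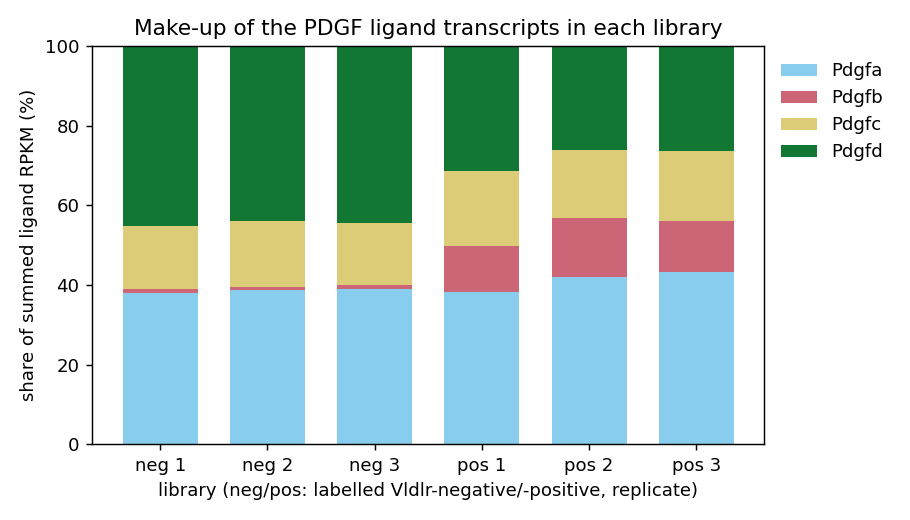
Share (%) of each ligand gene in the summed RPKM of Pdgfa, Pdgfb, Pdgfc and Pdgfd, 1 bar per library. The Pdgfb share is 0.894% to 1.02% in the labelled Vldlr- and 11.4% to 14.9% in the labelled Vldlr+ libraries, and the Pdgfd share is smaller in the latter.

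In order of level per length, the labelled Vldlr- libraries ran Pdgfrb, Pdgfra, Pdgfd, Pdgfrl, Pdgfa, Pdgfc and Pdgfb. Pdgfd and Pdgfrl overlapped in range there, at 21.3 to 22.5 and 20.2 to 22.0 RPKM. The labelled Vldlr+ libraries ran Pdgfrb, Pdgfrl, Pdgfra, Pdgfa, Pdgfd, Pdgfc and Pdgfb, with no overlap between neighbours. Pdgfb was last in both orders, but its distance from Pdgfc was 0.473 against 7.81 RPKM in the labelled Vldlr- and 5.43 against 7.42 RPKM in the labelled Vldlr+ libraries.

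The RefSeq promoter table (GRCm38.p6) held 4 of the 7 members. The windows of Pdgfra and Pdgfd are shown, since these were the members called lower, and each holds the 250 bases before the RefSeq start, written 5′ to 3′ on the gene's strand. Capitals mark matches to any of the motifs searched on both strands, namely the GC box GGGCGG, the TATA box TATAAA, the CCAAT box, the AP-1 site TGANTCA, the E-box CANNTG and the CSL site TGGGAA.
Pdgfra, chr5:75152001-75152250, plus strand: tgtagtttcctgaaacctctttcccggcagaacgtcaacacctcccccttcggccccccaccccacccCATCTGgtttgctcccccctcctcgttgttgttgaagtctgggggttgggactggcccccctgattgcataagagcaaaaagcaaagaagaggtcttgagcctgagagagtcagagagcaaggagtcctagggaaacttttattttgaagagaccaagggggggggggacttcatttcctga
Pdgfd, chr9:6168236-6168485, plus strand: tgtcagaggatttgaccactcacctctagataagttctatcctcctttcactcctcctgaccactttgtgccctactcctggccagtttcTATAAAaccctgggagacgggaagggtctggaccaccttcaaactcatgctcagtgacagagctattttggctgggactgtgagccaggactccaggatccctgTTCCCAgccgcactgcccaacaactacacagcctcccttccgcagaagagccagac
The Pdgfra window held 1 match, an E-box starting at position -182, a motif found in 66.2% of the 32851 promoter windows of that length. The Pdgfd window held a TATA box letter match at -160, found in 12.4% of windows, and a CSL match on the other strand at -56, found in 21.6%. These windows of the members called lower had no motif in common. Of the members not called, the Pdgfc window held none of the motifs. The windows at the 2 Pdgfa starts each held GC boxes, a motif found in 32.7% of windows, and 1 of them also held a CSL match. A letter match is not a binding site.

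Genes that carry, restrain or answer PDGF signals were read from lists chosen with earlier results of these data known. Among the adaptors, kinases and transcription factors that carry the receptor signal, 35 of 36 were tested, of which 6 were higher, 13 lower and 16 did not pass. The share called, 54.3%, was close to the 55.9% of all genes. The median log2 fold change was -0.08, against 0.02 for all genes. Map2k1, the ERK kinase MEK1, was at 39.7 ± 1.49 RPKM in the labelled Vldlr+ and 22.3 ± 0.878 RPKM in the labelled Vldlr- libraries (log2 fold change 0.81, SE 0.05, limma adjusted p = 5.7e-06). Pik3r1, the regulatory subunit by which PI 3-kinase docks on the receptors, was at 26.0 ± 3.26 against 50.9 ± 2.73 RPKM (log2 fold change -0.95, SE 0.09, limma adjusted p = 4.0e-05). Sos1, the exchange factor that loads RAS, was 1.52-fold lower, at 3.60 RPKM. Map2k1 and Pik3r1 were the list's 2 genes that passed against 1.5-fold. The number called lower was 8 without labelled Vldlr- replicate 1, 7 without labelled Vldlr- replicate 2, 8 without labelled Vldlr+ replicate 3 and 22 with total-read scaling. In the same order, all genes called lower were 2415, 2485 and 2450 of 12116 tested, and 5548 of 12156 with total-read scaling.

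Among genes that restrain or modify the receptors, 16 of 17 were tested, with 3 higher, 8 lower and 5 that did not pass (68.8% called, beside 55.9% of all genes, median log2 fold change -0.22). Those higher were Dok1, a docking protein that dampens RAS signalling, the ubiquitin ligase gene Cblb and the phosphatase gene Ptpn1. Dok1 was 2.80-fold higher, at 42.2 ± 2.49 against 15.1 ± 0.602 RPKM (log2 fold change 1.43, SE 0.06, limma adjusted p = 3.6e-07). Cblb was at 8.45 ± 0.548 against 4.11 ± 0.151 RPKM, and Ptpn1 at 17.1 against 12.0 RPKM. The Sprouty genes, ERK-induced inhibitors of receptor signalling, were lower. Spry2 was at 11.3 ± 0.709 against 20.9 ± 1.08 RPKM (log2 fold change -0.83, SE 0.06, limma adjusted p = 1.2e-05), Spry1 at 2.68 against 5.27 RPKM and Spry4 at 2.63 against 4.79 RPKM. The ERK phosphatase gene Dusp6 was lower as well, at 3.94 against 6.46 RPKM. Ptpn1, Spry4 and Dusp6 were named after their values were seen.

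Of 11 genes that process or bind the ligands, 8 were tested, with 6 higher and 1 lower (87.5% called, 7 of 8 genes, beside 55.9% of all genes, median log2 fold change 0.52). Furin and Pcsk6 encode proprotein convertases, the enzyme class that trims PDGF precursors. Pcsk6 was 2.08-fold higher, at 33.3 ± 1.79 against 16.0 ± 0.231 RPKM (log2 fold change 1.01, SE 0.06, limma adjusted p = 1.6e-06). Furin was 1.57-fold higher at 18.7 RPKM, and Pcsk5 1.85-fold higher at 2.11 RPKM. Plau encodes urokinase, which can release active PDGF-D in human systems, and was the gene that was lower, as was Pdgfd itself. It was at 17.3 ± 1.38 against 34.7 ± 1.22 RPKM (log2 fold change -0.97, SE 0.07, limma adjusted p = 6.3e-06). Plat, the tissue plasminogen activator that activates PDGF-C, was at 19.3 RPKM in the labelled Vldlr+ and 18.1 RPKM in the labelled Vldlr- libraries and did not pass (limma adjusted p = 0.225); it was named after its values were seen.

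Of 16 genes known to be induced in fibroblasts by PDGF or serum, 15 were tested, with 9 higher, 1 lower and 5 that did not pass (66.7% called, beside 55.9% of all genes, median log2 fold change 0.47). Has2, which makes hyaluronan, was 3.43-fold higher at 20.0 ± 3.08 RPKM (log2 fold change 1.61, SE 0.11, limma adjusted p = 4.6e-06). Plaur, the urokinase receptor gene, was 2.51-fold higher at 10.1 RPKM, and Junb 1.81-fold higher at 36.0 RPKM. The chemokine gene Cxcl1, first found as a PDGF-induced gene in mouse fibroblasts, was the one that was lower, at 1.64 ± 0.0895 against 5.59 ± 0.653 RPKM (log2 fold change -1.31, SE 0.08, limma adjusted p = 3.8e-06). Fos and Egr1, named after their values were seen, were at 3.37 against 3.59 RPKM and at 28.7 against 28.2 RPKM, and did not pass. The number lower was 2 without labelled Vldlr+ replicate 1, and 3 with total-read scaling. Of all genes, 3754 of 12116 and 5548 of 12156 tested were called lower in these settings.

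Among relatives of the family, 13 of 14 genes were in the table and 9 were tested, with 2 higher and 6 lower (88.9% called, beside 55.9% of all genes). Of these 9, Pgf passed the filter only through the labelled Vldlr+ libraries, and Csf1r and Flt3l only through the labelled Vldlr- ones, so these 3 had to differ in order to be tested and the count is no support. Pgf, a VEGF-type ligand, was 5.57-fold higher at 1.58 ± 0.306 RPKM (log2 fold change 1.00, SE 0.09, limma adjusted p = 4.2e-05), and Csf1 was at 268 against 225 RPKM. The ligand genes Kitl, Flt3l, Vegfb, Vegfc and Vegfd were lower. Kitl was at 10.9 ± 3.62 against 23.9 ± 1.56 RPKM and Flt3l at 0.587 against 1.19 RPKM. Csf1r, the one receptor of this list that was tested and a macrophage gene, was at 0.760 ± 0.141 against 3.94 ± 0.254 RPKM (log2 fold change -1.49, SE 0.08, limma adjusted p = 1.5e-06). Kit, Flt1, Kdr and Flt4 stayed under 1 RPKM in every library and were not tested. Csf1, Vegfb, Vegfc and Vegfd were named after their values were seen.

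**Figure D5:**
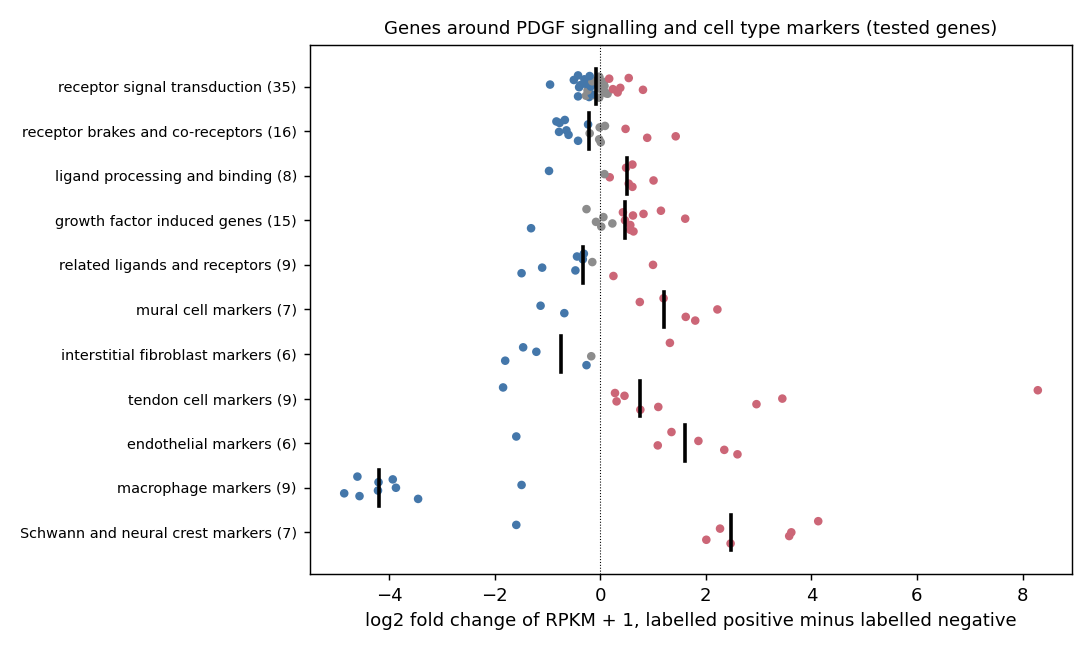
Log2 fold change of RPKM + 1 for each tested gene of 11 lists (number tested in brackets), with red points for genes called higher in the labelled Vldlr+ libraries, blue for lower and grey for not passed, and a black line at each list's median. The genes induced by growth factors and those processing the ligands lie mostly to the right, and all 9 macrophage genes to the left, 7 of which passed the filter only through the labelled Vldlr- libraries.

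Markers of several cell types that make or answer PDGF differed in level between the groups, in both directions. For markers near 0 in one group the filter fixes the outcome, since a gene that passed only through the group where it is high had to differ. Counts over such lists are therefore a description. In the endothelial, Schwann, mural and macrophage lists 100% of the tested genes were called, beside 55.9% of all genes. In bulk samples, fewer cells of a type and less RNA per cell cannot be told apart. Endothelial cells are a known source of PDGF-B. Of 8 endothelial markers 6 were tested, 5 of which passed the filter only through the labelled Vldlr+ libraries, where they were higher, and 1 (Tek) only through the labelled Vldlr- ones, where it was higher. The summed level of the list was 3.45 to 4.12 RPKM in the labelled Vldlr- and 15.9 to 16.0 RPKM in the labelled Vldlr+ libraries. Different genes made up the sum in each group, since most of it in the labelled Vldlr- libraries was Tek, at 0.496 against 3.52 RPKM. Cdh5 and Tie1 were listed at 0 in all labelled Vldlr- libraries and at 5.07 and 1.55 RPKM in the labelled Vldlr+ ones, Emcn was at 4.20 against 0.0165 RPKM and Pecam1 at 2.69 against 0.0144 RPKM. The endothelial gene Vwf, named after its values were seen, was at 0.0678 against 0.0334 RPKM. The part of these genes in the Pdgfb result was not tested. Of 8 Schwann and neural crest markers 7 were tested, 6 higher and 1 (S100b, at 4.50 against 15.4 RPKM) lower, and 5 of those higher passed the filter only through the labelled Vldlr+ libraries. Their sum was 123 to 133 RPKM in the labelled Vldlr+ and 20.8 to 22.7 RPKM in the labelled Vldlr- libraries, with Sox10 at 16.8 against 0.0117 RPKM, Ngfr at 72.2 against 4.98 RPKM, Gap43 at 17.2 against 0.517 RPKM and Erbb3 at 3.38 against 0.0833 RPKM. Their part was not tested.

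Mural cells carry Pdgfrb, and of 11 mural markers 7 were tested, 5 higher and 2 (Cspg4 and Myh11) lower (100% called, beside 55.9% of all genes). Of these, Rgs5 passed the filter only through the labelled Vldlr+ and Myh11 only through the labelled Vldlr- libraries. Their sum was 227 to 259 RPKM in the labelled Vldlr- and 757 to 854 RPKM in the labelled Vldlr+ libraries, most of it Acta2, which contractile fibroblasts also make, at 703 ± 50.2 against 202 ± 16.6 RPKM. Mcam was at 15.0 against 2.43 RPKM, Anpep at 60.5 against 19.1 RPKM and Rgs5 at 2.36 against 0.457 RPKM. The 2 that were lower stood at 5.34 against 9.19 RPKM (Cspg4) and 0.580 against 2.47 RPKM (Myh11). The pericyte genes Kcnj8 and Abcc9, named after their values were seen, were at 0.00788 against 0.913 RPKM and 0.0168 against 0.331 RPKM. Both stayed under 1 RPKM in every library and were not tested. Of 8 markers of Pdgfra-bearing interstitial fibroblasts 6 were tested, 4 lower, 1 (Thy1) higher and 1 not passed (83.3% called, beside 55.9% of all genes). Cd34 was at 3.79 against 15.7 RPKM, Osr1 at 3.93 against 12.6 RPKM, Ly6a at 180.1 against 418 RPKM and Thy1 at 499 against 199 RPKM. The summed level of this list overlapped between the groups, at 911 to 1047 RPKM in the labelled Vldlr- and 889 to 1011 RPKM in the labelled Vldlr+ libraries. Cspg4, Myh11 and, among the endothelial markers, Tek were named after their values were seen. The part of these lists in the receptor results was not tested.

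Macrophages also make PDGF chains. Of 10 macrophage markers 9 were tested and all 9 were lower, but 7 of them passed the filter only through the labelled Vldlr- libraries, the others being Lyz2 and Cd68. The summed level of the list was 541 to 655 RPKM in the labelled Vldlr- and 25.9 to 33.1 RPKM in the labelled Vldlr+ libraries. Tyrobp was listed at 0 in all labelled Vldlr+ libraries. Lyz2 was at 27.4 against 430 RPKM, Cd68 at 1.35 against 33.4 RPKM, Fcer1g at 0.138 against 19.9 RPKM and C1qa, C1qb and C1qc at 0.0579, 0.0369 and 0.0209 against 24.0, 29.1 and 18.0 RPKM. The part of these genes in the Pdgfb and Pdgfd results was not tested. Platelets store PDGF, and of 6 platelet and megakaryocyte markers 4 were in the table and 0 reached the filter and were tested, with Itga2b at 0.750 against 0.935 RPKM and Pf4 at 0.168 against 1.51 RPKM. Their sum was 2.49 to 4.44 RPKM in the labelled Vldlr- and 1.16 to 1.21 RPKM in the labelled Vldlr+ libraries.

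The genes whose values over the 6 libraries lay nearest to each member, by Euclidean distance between centred log2(RPKM + 1) values, are given as a description, and the distance includes the difference between the groups. Nearest to Pdgfb were Igfbp6 (distance 0.0974), Fstl3 (0.108) and Slc16a3 (0.110), of which Igfbp6 was at 210 ± 19.6 against 47.6 ± 2.30 RPKM. Nearest to Pdgfrb were Pam (0.0569), Plxna4 (0.0843) and Acot11 (0.0846), and nearest to Pdgfrl were Rras (0.0519), Yif1a (0.0543) and Chid1 (0.0559). Pdgfra lay nearest to Lipe (0.0409), Stox2 (0.0544) and Slc23a2 (0.0573), and Pdgfd to Ahr (0.0457), Idi1 (0.0630) and Eda2r (0.0861). For the members not called, the nearest were Ttc7b (0.0476), Usp19 (0.0575) and Zer1 (0.0585) for Pdgfa, and Rspry1 (0.0272), Ddx42 (0.0359) and Rapgef2 (0.0374) for Pdgfc.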

How the data were processed

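The 6 libraries came from sorted, cultured cells. The table deposited by the authors holds RPKM, a unit read from its values since no header gives one. The build mm10 and the tools Cell Ranger and bcl2fastq (version 1.8.4) are listed, without roles, per the submitters' processing notes. Aligner, counter and strand setting: not given in the sources used here. With merged exon lengths from GENCODE M21 (GRCm38), 15690 of 15691 genes with a length gave whole reads in all libraries, within 0.01 reads. Such values do not separate isoforms.

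The 12116 genes that reached 1 RPKM in 3 or more libraries were fitted on log2(RPKM + 1) with limma 3.58.1 (R 4.3.3, statmod 1.5.0), using its trend and robust settings, and adjusted by Benjamini-Hochberg over all of them. The treat test of the same fit used 1.5-fold. Folds are ratios of mean RPKM. The fit was tested on simulated data. Alternatives were 3 other scalings, a pseudocount of 0.1, other filters, limma voom on worked-out reads, a replicate block and leaving out each library. Every member was named. In each list the called genes of lowest adjusted p were named (at most 4, or the 2 of highest mean where fewer than 2 were called), plus the 2 of highest mean in marker lists. For each member the 3 nearest genes were named, leaving out predicted gene models. Members and lists were chosen with earlier results of these data known. A gene that the naming rule picked is not reported here.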

Additional observations from a re-analysis of the deposited data

How the results depend on the processing

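Directions of all 7 members held under every alternative run, and the 5 calls held wherever the member was tested (Pdgfb was not tested with a filter at 5 RPKM). Total-read scaling called 4 members lower, with Pdgfa at -0.32 and Pdgfc at -0.25 (limma adjusted p = 0.00922). It called 5548 of all 12156 genes tested lower. All genes shifted by a median of -0.17 there, leaving -0.07 for Pdgfc. Upper-quartile scaling called Pdgfa at -0.16, and 3519 of all 12121 genes tested lower. Against 1.5-fold, 1 member was higher with total-read scaling and 1 with the 5 RPKM filter. The number lower was 2 with total-read scaling and 1 with upper-quartile scaling, a pseudocount of 0.1, voom or the replicate block. It was 0 to 1 when libraries were left out. The share of all genes lower against 1.5-fold was worked out for the main fit (5.00%) and voom (6.58%). The other counts have no such share beside them and are a description. The member passing with the block was Pdgfd (adjusted p = 0.0180). Deviations of same-numbered samples correlated with r of 0.30, -0.06 and 0.31 over genes, and those of differently numbered samples with r of -0.39 to 0.26. These values do not settle whether the numbers are pairs, and the main fit did not take them as pairs. With the block the log2 fold change of Pdgfb was 2.12 and no plain call of a member changed.

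Over all genes, total-read scaling gave 1877 higher and 5548 lower of 12156 tested, and the 5 RPKM filter 2726 higher and 1800 lower of 7342 tested. With no filter 4044 were higher and 4168 lower of 15711 tested, and with the block 3315 were lower of 12116 tested. Leaving out libraries gave 2415 to 3754 lower of 12116. With total-read scaling, signal transduction had 3 higher and 22 lower, growth factor induced genes 3 lower and the relatives 1 higher. All genes shifted by a median of -0.17 there, and these list counts were not set apart from that shift. With no filter, 2 ligand processing genes were lower, 4 relatives higher, 5 mural markers lower and 3 platelet markers lower. With the 5 RPKM filter, 0 growth factor induced genes were lower, 1 relative higher, 1 mural marker lower, and 0 endothelial markers higher and 0 lower, since such genes were not tested. The block gave 2 growth factor induced genes lower. Leaving out libraries gave 7 to 17 signal transduction genes lower and 1 to 2 growth factor induced genes lower.

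With 34 to 38 reads per labelled-negative library, the fold of Pdgfb is less precise than that of the other members. Its log2 fold change was 3.27 with a pseudocount of 0.1 and 3.50 with voom, against 2.12.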
